A study of Mus musculus with 103 samples.

Results

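Chemokines are small secreted proteins that attract cells carrying matching receptors, and fibroblasts are one of their sources in tissue. This account follows 9 genes of that system in mouse embryonic fibroblasts: the chemokines Cxcl12, Cxcl14, Cxcl16, Cxcl1, Cxcl5, Ccl2, Ccl7 and Ccl11, and Cxcr7 (now named Ackr3), an atypical receptor that binds Cxcl12. They were taken by symbol from the 23339 genes of the larger RNA-seq table. All 9 passed the filter on low values and were among the 12604 genes tested.

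The fibroblasts came from E13.5 embryos on a C57BL/6 background and were studied after deletion of regulators of cohesin, the ring complex that holds DNA loops together. Ctcf positions cohesin at its binding sites, Wapl releases it from chromatin, and Smc3 is a subunit of the ring. The RNA-seq groups were wild-type cells, untreated or 4 h in adenovirus carrying Cre (Adeno-Cre), 2 libraries each; Ctcf fl/fl cells, untreated or Adeno-Cre, 2 each; Ctcf fl/fl Wapl fl/fl cells, 2 untreated libraries and 1 Adeno-Cre library; Smc3 floxed cells with Rosa26 CreER/+, untreated or in 4-hydroxytamoxifen for 2 to 3 days, 4 each; Wapl fl/- cells with Rosa26 CreER/+, untreated or in 4-hydroxytamoxifen, 2 each; and cells with Rosa26 CreER/+ alone, untreated or in 4-hydroxytamoxifen, 2 each. Cells then rested for 10 days. Each library is 1 clone, and a clone usually gave an untreated and a treated library; Smc3 clone 1 was fl/fl and clones 2, 3 and 4 were fl/-, and untreated Wapl cells already lacked 1 Wapl allele. Nothing in the labels says that clones came from separate embryos, so the p-values measure the spread between these clones, which may be technical. A separate table, whose name refers to serum stimulation, held 2 more Ctcf Wapl libraries labelled Adeno-Cre. Nascent RNA was measured by GRO-seq in wild-type, Cre-ER and Ctcf Wapl cells. Ctcf Wapl cells after Adeno-Cre were also measured in 3.5 h of DRB, a blocker of Cdk9, and 1 day after its removal.

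Library depth ran from 8467390 to 41070352 reads in genes. Ctcf mRNA fell from a mean of 12.4 to 4.13 RPKM (reads scaled to transcript length and library size) in Ctcf cells and from 10.9 to 3.76 RPKM in Ctcf Wapl cells, in which Wapl (Wapal in the table) also fell from 3.32 to 1.52 RPKM (limma adjusted p = 0.0275). Wapl mRNA was 1.64 and 0.847 RPKM before and after hydroxytamoxifen in Wapl cells (adjusted p = 0.167, and 0.0233 with clone as a block). Smc3 mRNA itself showed no loss, at 9.53 RPKM untreated and 11.6 RPKM after hydroxytamoxifen (adjusted p = 0.119, and 0.0421, higher, with the block), so the treated libraries are called by their label, Smc3-deleted. The summed level of 12 fibroblast markers was 10300 to 18700 RPKM over the 27 libraries, while 18 macrophage markers, none of them at 0 in every library, summed to between 30.6 and 5350 RPKM. In bulk RNA, fewer cells of a type and less RNA per cell cannot be told apart.

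Cxcl12 signals through Cxcr4 and retains and guides stem cells, leukocytes and migrating embryonic cells, whereas Cxcr7 removes Cxcl12 without G-protein signalling. The other chemokines fall into the homeostatic Cxcl14, the membrane-anchored Cxcl16, the neutrophil attractants Cxcl1 and Cxcl5 and the monocyte and eosinophil attractants Ccl2, Ccl7 and Ccl11. RefSeq held a promoter window for 4 of the 9 members (GRCm38.p6), and the stretches of 120 bases that end at the start site are shown because Cxcl12, Cxcr7 and Cxcl14 carry the largest losses of mRNA and Cxcl1 holds an NF-kappa-B site form. They lie on the stated strand at chr6:117168415-117168534 (Cxcl12, plus), chr1:90203860-90203979 (Cxcr7, plus), chr13:56296552-56296671 (Cxcl14, minus) and chr5:90891125-90891244 (Cxcl1, plus), and capitals mark motif matches.
Cxcl12: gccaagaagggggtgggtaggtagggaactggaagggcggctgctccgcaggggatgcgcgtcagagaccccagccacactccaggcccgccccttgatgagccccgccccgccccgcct
Cxcr7: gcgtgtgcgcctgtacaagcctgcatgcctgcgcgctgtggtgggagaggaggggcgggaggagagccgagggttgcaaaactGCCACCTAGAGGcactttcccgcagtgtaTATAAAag
Cxcl14: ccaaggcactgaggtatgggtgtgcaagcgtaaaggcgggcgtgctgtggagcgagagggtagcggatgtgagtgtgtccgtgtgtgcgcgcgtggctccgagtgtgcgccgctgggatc
Cxcl1: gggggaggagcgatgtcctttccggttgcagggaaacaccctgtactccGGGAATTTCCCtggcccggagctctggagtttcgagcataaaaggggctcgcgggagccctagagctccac
Letter patterns were searched on both strands of the windows, which run from 250 bases before to 50 bases after the start. The pattern GGGA, any 2 bases, TTCC, a form of the NF-kappa-B site, was held by 1.47% of all 32851 windows and by Cxcl1, where its matches on the 2 strands overlap and begin 71 and 70 bases before the start. TATAAA was held by 13.6% of windows and by Cxcr7, 8 bases before the start. The pattern CC, any 3 bases, AG, any 2 bases, GGC, a core form of the CTCF motif that was added after the data were seen, was held by 8.61% of windows, by Cxcr7 (on the other strand, from 37 bases before the start) and by Cxcl14 (154 bases before the start, outside the stretch shown). Cxcl12 held none of these letters in its window, which had 20 CpG and 64.7% G and C against medians of 7 and 52.7% over all windows. A match describes the letters and is not a site shown to be bound.

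Cxcl12 mRNA fell in the libraries labelled Smc3-deleted and in Ctcf Wapl cells, and stood lower without a call in Ctcf and Wapl cells. In the 4 untreated Smc3 libraries it stood at 51.6, 108, 64.0 and 145 RPKM (clones 1 to 4), and after hydroxytamoxifen at 10.1, 13.7, 3.81 and 3.16 RPKM. The highest treated library lay below the lowest untreated one. The mean fell from 92.1 ± 42.7 to 7.68 ± 5.07 RPKM (SD, n = 4 each), with a log2 fold change of -3.51 ± 0.45 (SE; limma on log2(RPKM + 1), Benjamini-Hochberg adjusted p = 6.05e-05). Within clones the loss was 5.11-fold in clone 1, 7.90-fold in clone 2, 16.8-fold in clone 3 and 45.9-fold in clone 4. The macrophage marker sum also stood lower there, at 65.4 to 2160 RPKM untreated and 30.6 to 429 RPKM treated, and its part in the losses of Cxcl12, Cxcr7, Cxcl14 and Cxcl5 was not tested. Hydroxytamoxifen in cells with Cre-ER and no floxed allele left Cxcl12 at 58.4 and 58.6 RPKM against 62.1 and 58.0 RPKM, a log2 fold change of -0.04 (adjusted p = 1.0). The change in Smc3 cells exceeded that in the control by -3.47 ± 0.78 on the log2 scale (adjusted p = 0.036). That difference lost its call without the filter (adjusted p = 0.0576), with only the groups compared in the fit (0.0608), when any of the 4 Cre-ER libraries was left out (0.144 to 0.173), and with Smc3 clones 3 or 4 treated or 2 or 4 untreated left out (0.0617 to 0.0706).

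In Ctcf cells Cxcl12 was 115 and 85.5 RPKM untreated and 28.9 and 22.1 RPKM after Adeno-Cre, groups that did not overlap. The log2 fold change of -1.93 ± 0.63 missed the threshold (adjusted p = 0.0758) and passed with clone as a block (adjusted p = 0.0213). In Wapl cells it was 34.2 and 38.6 RPKM untreated and 9.27 and 13.2 RPKM after hydroxytamoxifen, a log2 fold change of -1.63 (adjusted p = 0.216, and 0.0607 with the block). In Ctcf Wapl cells it was 49.5 and 248 RPKM untreated (clones 3 and 4) and 12.9 RPKM in the single Adeno-Cre library of clone 4. It fell by 3.01 ± 0.78 on the log2 scale (limma adjusted p = 0.0134), where the spread of the lone treated library is taken to be that of the other groups. The call was lost without untreated clone 4 (-1.86, adjusted p = 0.0764) and with only these 3 libraries in the fit (0.456). Wild-type cells, which have no floxed gene, gave 286 and 173 RPKM untreated and 132 and 106 RPKM after Adeno-Cre, a log2 fold change of -0.90 (adjusted p = 0.493). The change in Ctcf Wapl cells did not pass against that of the wild type (-2.11, adjusted p = 0.28), except with clone as a block (-3.26, adjusted p = 0.0415).

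Ranked by group mean, Cxcl12 mRNA ran from 229 RPKM in untreated wild-type cells to 7.68 RPKM in the libraries labelled Smc3-deleted, a 29.9-fold range. Of the 11 pairs of neighbouring groups in that order, 8 overlapped. The 3 that did not were Cre-ER cells in hydroxytamoxifen (58.5 RPKM) over untreated Wapl cells (36.4 RPKM), those over Ctcf cells after Adeno-Cre (25.5 RPKM), and those over the Ctcf Wapl Adeno-Cre library (12.9 RPKM).

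Cxcr7 fell in 3 of the 4 deletions and stood lower without a call in Wapl cells. In Ctcf cells it was 21.8 and 10.3 RPKM untreated and 1.75 and 2.22 RPKM after Adeno-Cre, with 12.4% of the mean left. It fell by 2.43 ± 0.47 on the log2 scale (limma adjusted p = 0.00291), and the groups did not overlap. Cxcr7 was the only 1 of 9 members called in this deletion, where 2.63% of all genes fell and 5.04% rose (3.34% and 4.16% after rescaling by median ratios). With the block Cxcl12 and Cxcl5 were called too, 3 members lower where 9.35% of all genes were lower. Leaving out untreated clone 1 ended the call (-1.93, adjusted p = 0.079), as did fitting the 4 Ctcf libraries alone (0.067).

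Untreated Smc3 cells had the most Cxcr7 of all groups, 29.6, 30.2, 46.4 and 30.8 RPKM, and the libraries labelled Smc3-deleted had 22.1, 13.1, 6.33 and 5.99 RPKM. The groups did not overlap and clones 3 and 4 were lowest after treatment, as they were for Cxcl12. Cxcr7 fell by 1.61 ± 0.33 on the log2 scale (limma adjusted p = 0.00316). The difference from the Cre-ER control, -1.67, was not called (adjusted p = 0.209, and 0.0955 with clone as a block). In Ctcf Wapl cells Cxcr7 was 16.3 and 33.5 RPKM untreated and 1.09 RPKM after Adeno-Cre, the lowest of all libraries, and fell by 3.54 ± 0.58 on the log2 scale (adjusted p = 0.000453, and 0.0763 with only these 3 libraries in the fit). Wild-type cells had 15.2 and 14.98 RPKM before and 11.4 and 8.48 RPKM after Adeno-Cre (log2 fold change -0.57, adjusted p = 0.581). The drop in Ctcf Wapl cells was larger than in wild-type cells by -2.97 ± 0.75 on the log2 scale (adjusted p = 0.0309, a difference tested after the data were seen), but not without the untreated clone 4 (-2.48, adjusted p = 0.059) or without wild-type Adeno-Cre clone 2 (adjusted p = 0.0995), untreated clone 2 (0.0758) or untreated clone 3 (0.0766), or with only the groups compared in the fit (0.126). The same difference for Ctcf cells, -1.86, was not called (adjusted p = 0.294). Wapl cells had 32.8 and 23.4 RPKM untreated and 18.8 and 9.79 RPKM after hydroxytamoxifen, groups that did not overlap. The log2 fold change was -0.97 (limma adjusted p = 0.354). Smc3 minus Wapl, the difference in Cxcr7 was -0.63 (limma adjusted p = 0.831). Cre-ER cells were between 11.4 and 12.3 RPKM. By group mean Cxcr7 spanned 34.2 to 1.09 RPKM, and 8 of 11 neighbouring pairs of groups overlapped.

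The classical Cxcl12 receptor, Cxcr4, was scarce, with a median of 2.25 RPKM over the libraries and its highest group mean, 11.2 RPKM, in untreated Wapl cells, which also had the highest macrophage marker sum (4230 to 5350 RPKM). The part of macrophages in that level was not tested. Among 12 partners of the Cxcl12 axis, Hif1a, an oxygen-responsive transcription factor known to drive Cxcl12, fell in the Smc3 comparison (15.1 to 10.3 RPKM, limma adjusted p = 0.0337), and Mmp2, a protease that clips Cxcl12, fell in Ctcf Wapl cells (680 to 247 RPKM, adjusted p = 0.00338). No other partner was called by this fit in a deletion or control. With clone as a block, which called 36.6% of all genes in the Smc3 comparison, 2 partners rose and 3 fell there. Cxcr4 (3.78 to 0.861 RPKM, limma adjusted p = 0.0403 with the block and 0.338 without) was among those that fell. In Ctcf cells 2 fell with the block, where 9.35% of all genes fell.

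**Figure D1:**
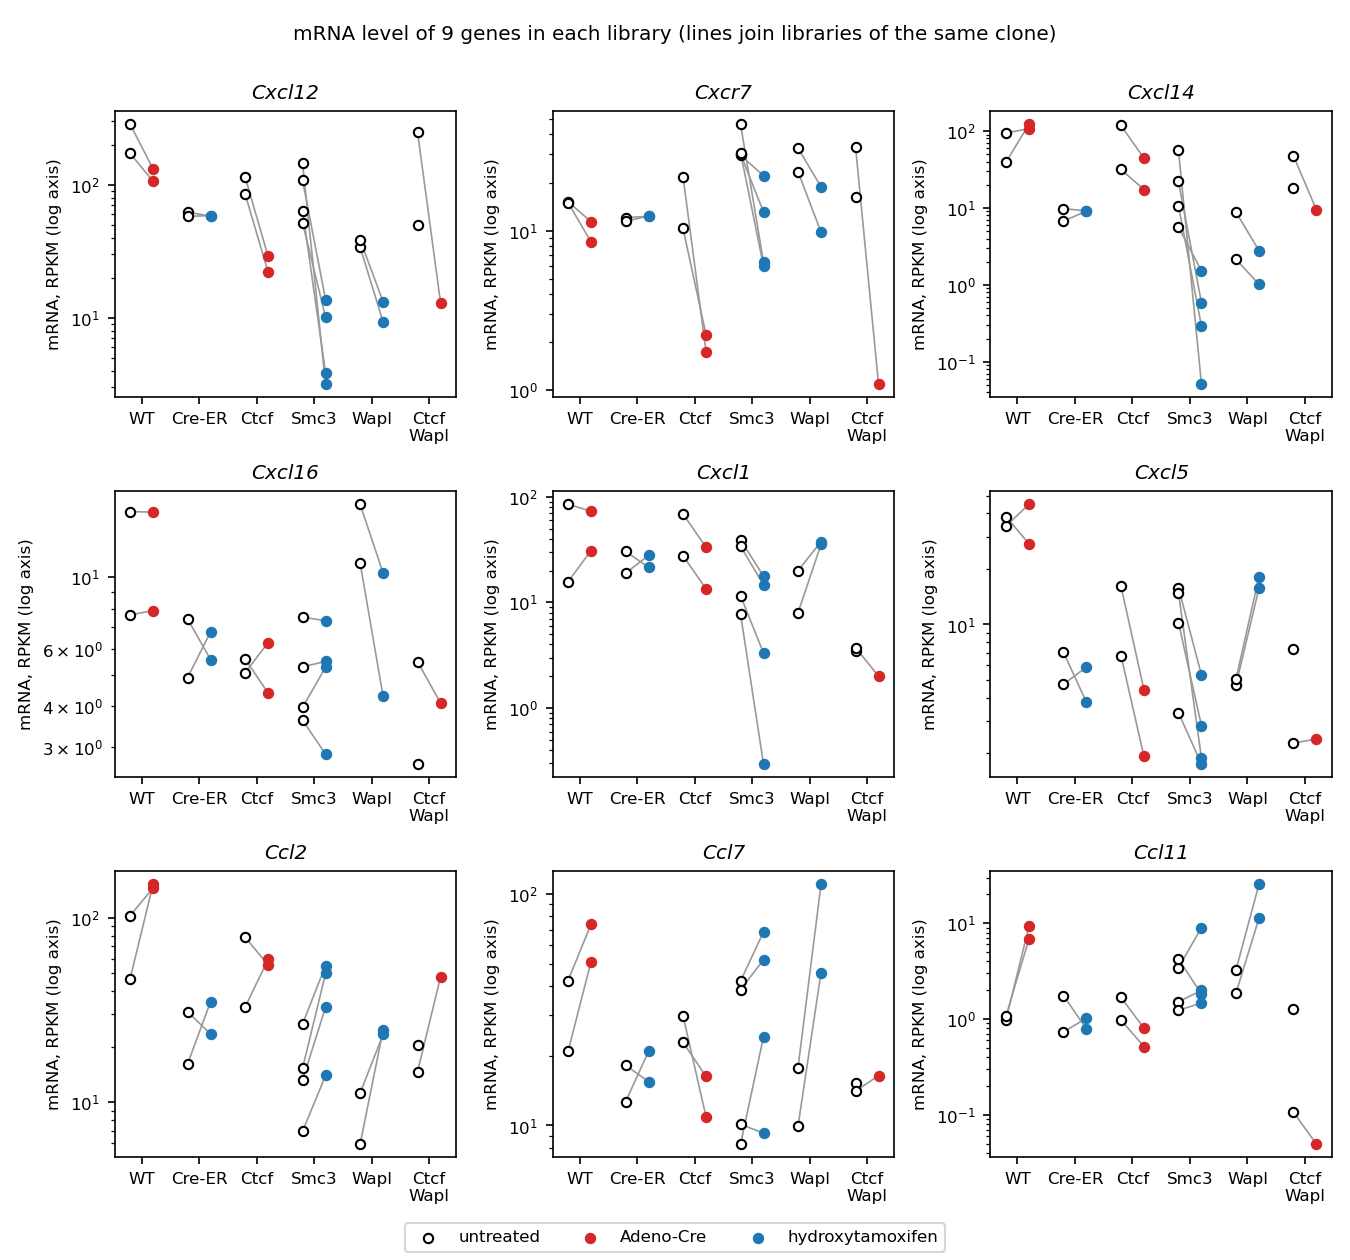
RPKM (log axis) of each of the 9 genes in the 27 libraries, by genotype. Open points are untreated libraries, red points Adeno-Cre and blue points hydroxytamoxifen, and lines join libraries of 1 clone; the 4 treated Smc3 libraries of Cxcl12 sit between 3.16 and 13.7 RPKM, under all 4 untreated ones.

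Cxcl14 attracts monocyte-lineage and dendritic cells in healthy epithelia and skin. It was 5.64, 22.1, 10.7 and 56.2 RPKM in untreated Smc3 cells and 1.52, 0.585, 0.29 and 0.0509 RPKM in the libraries labelled Smc3-deleted, the last of these resting on 2 reads. The groups did not overlap. Clone 4 was highest before and lowest after treatment, and clone 1 lowest before and highest after. Cxcl14 fell by 3.55 ± 0.59 on the log2 scale (limma adjusted p = 0.000584), with 2.58% of the mean left. It did not pass against the Cre-ER control (-3.70, adjusted p = 0.0969, and 0.0395 with clone as a block), whose libraries held 9.80 and 6.76 RPKM untreated and 9.13 and 9.08 RPKM treated.

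After the other deletions Cxcl14 was also lower in each clone that had both libraries, without a call. It was 31.6 and 118 RPKM before and 17.3 and 44.2 RPKM after Adeno-Cre in Ctcf cells, where clone 2 after treatment stood above clone 1 before it. Wapl cells gave 2.14 and 8.83 RPKM before and 1.02 and 2.78 RPKM after hydroxytamoxifen. Ctcf Wapl cells gave 18.4 and 47.6 RPKM untreated and 9.40 RPKM after Adeno-Cre. The adjusted p values were 0.53, 0.679 and 0.342. In wild-type cells the values went the other way, 39.4 and 94.1 RPKM untreated and 123 and 108 RPKM after Adeno-Cre (log2 fold change 0.90, not called). Over the 12 groups Cxcl14 had a 189-fold range of means, from 115 RPKM in wild-type cells after Adeno-Cre to 0.611 RPKM in the libraries labelled Smc3-deleted.

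Cxcl16 is a transmembrane ligand of Cxcr6 that Adam10 and Adam17 cut from the cell surface. It varied least, from 2.66 to 16.8 RPKM over all libraries, and all 11 neighbouring pairs of groups overlapped. In Wapl cells it was 11.1 and 16.8 RPKM untreated and 4.30 and 10.3 RPKM after hydroxytamoxifen, a log2 fold change of -0.92 ± 0.44 (limma adjusted p = 0.342, and 0.0156 with clone as a block). In the Smc3 comparison its means were 5.11 and 5.25 RPKM (log2 fold change 0.02), while Adam10 rose from 12.2 to 18.4 RPKM (adjusted p = 0.00569).

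Cxcl1 and Cxcl5 recruit neutrophils through Cxcr2, a receptor at or below 0.294 RPKM here and at 0 in 19 of 27 libraries. Cxcl5 was 10.2, 15.8, 3.32 and 14.9 RPKM in untreated Smc3 cells and 2.82, 5.32, 1.75 and 1.88 RPKM in the libraries labelled Smc3-deleted. Every clone was lower after treatment, although the untreated clone 3 lay below the treated clone 2. The log2 fold change was -1.52 ± 0.41 (limma adjusted p = 0.017), and the call was lost without treated clone 3 (-1.37, adjusted p = 0.0598) or 4 (-1.40, 0.0585) or untreated clone 2 (-1.30, 0.0635) or 4 (-1.33, 0.0576), and with the Smc3 libraries alone in the fit (0.0755). Against the Cre-ER control the difference in Cxcl5 was -1.27 (adjusted p = 0.548, and 0.11 with clone as a block) and was not called. Cxcl1 was 39.0, 34.0, 11.6 and 7.77 RPKM untreated and 17.8, 14.7, 3.31 and 0.294 RPKM treated, lower in 4 of 4 clones. Its log2 fold change of -1.64 ± 0.74 did not pass (adjusted p = 0.156) unless clone was a block (0.00318).

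In Wapl cells both genes stood higher after treatment. Cxcl5 was 4.69 and 5.05 RPKM untreated and 15.7 and 18.1 RPKM after hydroxytamoxifen, and Cxcl1 was 20.0 and 7.99 RPKM and then 37.5 and 35.4 RPKM. Neither group pair overlapped. The log2 fold change of Cxcl5, 1.61 ± 0.58, was not called (limma adjusted p = 0.176, and 0.0214 with the block), nor was that of Cxcl1 (1.45, adjusted p = 0.608). The 2 changes in Cxcl5 differed by -3.13 ± 0.71 on the log2 scale, Smc3 minus Wapl (adjusted p = 0.0361). That call was lost after rescaling by median ratios (adjusted p = 0.0539), with only the groups compared in the fit (0.0953) and when any of the 4 Wapl libraries, treated Smc3 clones 3 or 4 or untreated clones 1, 2 or 4 was left out (0.0548 to 0.182).

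In Ctcf cells both genes were lower in both clones after Adeno-Cre, without a call. Cxcl1 went from 68.4 and 27.6 to 33.4 and 13.4 RPKM, and Cxcl5 from 16.1 and 6.78 to 4.41 and 1.92 RPKM (adjusted p = 0.699 and 0.128; for Cxcl5 0.0152 with the block). Ctcf Wapl cells had little of either: 3.48 and 3.73 RPKM of Cxcl1 untreated and 2.01 RPKM after Adeno-Cre, and 7.32, 2.27 and 2.39 RPKM of Cxcl5. Wild-type cells held 15.6 and 85.0 RPKM of Cxcl1 untreated and 31.0 and 73.0 RPKM after Adeno-Cre, so the clones differed more than the treatments. Of the 27 listed genes of NF-kappa-B signalling and cytokine input, 4 fell and 1 rose in the Smc3 comparison. Of all genes 5.6% fell and 9.37% rose there, and the list median was -0.11 against 0.07 for all genes. The largest falls were in Cebpd (56.2 to 12.1 RPKM, adjusted p = 0.000204) and Cebpb (57.7 to 19.6 RPKM, adjusted p = 0.0011), transcription factors of the acute-phase response. Against the Cre-ER control limma called none of the 27 in Smc3 cells, with 4 at an unadjusted p under 0.05. In Ctcf cells 2 of the list fell and 1 rose, where 2.63% of all genes fell and 5.04% rose. After Adeno-Cre in wild-type cells 1 fell (Il6st, 114 to 68.8 RPKM, limma adjusted p = 0.0203), where 0.54% of all genes fell. In Wapl cells limma called none, with 5 at an unadjusted p under 0.05. The list median in Ctcf Wapl cells, with 1 treated library, was 0.1 against 0.17 for all genes. Il6st, the shared receptor chain of the interleukin-6 family, changed by -0.66 on the log2 scale in both Smc3 and Ctcf cells. Its change in wild-type cells after Adeno-Cre was -0.73. The single Adeno-Cre library of Ctcf Wapl cells had 37.5 RPKM of Il6st against 110 RPKM untreated. The receptor Tnfrsf1a fell in both the Smc3 and the Ctcf comparison, where Nfkb1 and Nfkb2 respectively rose.

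Ccl2, Ccl7 and Ccl11 lie next to each other on chromosome 11 with no annotated gene between them. They attract monocytes (Ccl2 and Ccl7, through Ccr2) and eosinophils (Ccl11, or eotaxin, through Ccr3), and both receptors were at most 0.147 RPKM. Ccl11 was called in 2 comparisons. In Wapl cells it was 3.25 and 1.86 RPKM untreated and 25.6 and 11.3 RPKM after hydroxytamoxifen, groups that did not overlap. Its mean rose 7.22-fold, from 2.55 ± 0.978 to 18.5 ± 10.1 RPKM (SD, n = 2 each), and the log2 fold change was 2.38 ± 0.56 (limma adjusted p = 0.0301). In wild-type cells it was 0.984 and 1.07 RPKM untreated and 9.32 and 6.86 RPKM after Adeno-Cre, a log2 fold change of 2.15 ± 0.56 (adjusted p = 0.0447). Both calls were fragile: that in Wapl cells was lost with a pseudocount of 0.25 (adjusted p = 0.0764), with its 4 libraries alone in the fit (0.113), without treated clone 1 (1.82, adjusted p = 0.546) and without untreated clone 1 (0.107) or 2 (0.249), and that in wild-type cells was lost with a pseudocount of 0.25 (0.062), after rescaling (0.0614), with its libraries alone (0.0999) and without any 1 of its 4 libraries (0.0734 to 0.354).

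Beside these calls, the summed level of 10 interferon-response genes went from 169 to 244 RPKM up to 1020 to 1820 RPKM in wild-type cells, where 7 of the 9 tested rose, and from 296 to 445 RPKM up to 581 to 603 RPKM in Wapl cells, where none of the 9 was called (1 at an unadjusted limma p under 0.05). The part of the interferon response in the Ccl11 values was not tested. The macrophage marker sum was 4230 to 5350 RPKM in untreated Wapl cells and 1080 to 3310 RPKM after hydroxytamoxifen. Limma called none of the 16 macrophage markers tested there, and their part in the Ccl11 values was not tested. Elsewhere Ccl11 was low: 0.733 to 1.75 RPKM in Cre-ER cells, 0.516 to 1.68 RPKM in Ctcf cells, and 1.27 and 0.106 RPKM in untreated Ctcf Wapl cells against 0.0492 RPKM, or 1 read, after Adeno-Cre. In Smc3 cells it was 3.42, 1.51, 4.23 and 1.23 RPKM untreated and 9.03, 1.99, 1.82 and 1.47 RPKM treated, with clone 1 apart from the rest.

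Ccl7 also stood higher in treated Wapl cells, at 17.8 and 9.94 RPKM untreated and 110 and 45.7 RPKM after hydroxytamoxifen (log2 fold change 2.33 ± 0.79, limma adjusted p = 0.145, and 0.00392 with clone as a block). Ccl2 was 5.92 and 11.2 RPKM untreated and 24.6 and 23.3 RPKM treated in the same cells (adjusted p = 0.259, and 0.0511 with the block). All 3 genes were higher in both Wapl clones. Against the Cre-ER control none of the 9 members was called in Wapl cells, where 2 members had an unadjusted limma p under 0.05 and 0.143% of all genes were called. With the block Ccl11 passed (2.58, adjusted p = 0.0452, where 2.48% of genes passed).

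In the Smc3 comparison Ccl2 stood higher after treatment. It was 26.6, 13.2, 15.3 and 6.96 RPKM untreated and 55.1, 32.8, 49.9 and 14.0 RPKM in the libraries labelled Smc3-deleted, higher in 4 of 4 clones with overlapping groups. The log2 fold change was 1.21 ± 0.43 (limma adjusted p = 0.0654), and it passed with the block (0.0123) and without treated clone 4 (1.61, adjusted p = 0.0146) or untreated clone 1 (1.5, 0.0313). Ccl7, at 42.0, 8.30, 38.6 and 10.1 RPKM untreated and 68.6, 24.2, 51.9 and 9.26 RPKM treated, was higher in 3 of 4 clones (adjusted p = 0.529).

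After Adeno-Cre Ccl2 was 152 and 145 RPKM in wild-type cells against 46.7 and 103 RPKM untreated, 55.5 and 59.6 RPKM against 78.6 and 32.8 RPKM in Ctcf cells, and 48.0 RPKM against 20.4 and 14.7 RPKM in Ctcf Wapl cells. Ccl7 was 51.0 and 74.0 RPKM against 20.9 and 42.3 RPKM in wild-type cells and 10.9 and 16.3 RPKM against 29.7 and 22.8 RPKM in Ctcf cells. None of these changes was called (adjusted p 0.215 to 0.928). Against the wild-type response, limma called none of the 9 members in Ctcf cells, 2 of them at an unadjusted p under 0.05, where 1.46% of all genes were called. With clone as a block Ccl7 (-1.94, adjusted p = 0.0485) and Ccl11 (-2.63, adjusted p = 0.0216) passed, where 6.95% of genes did.

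**Figure D2:**
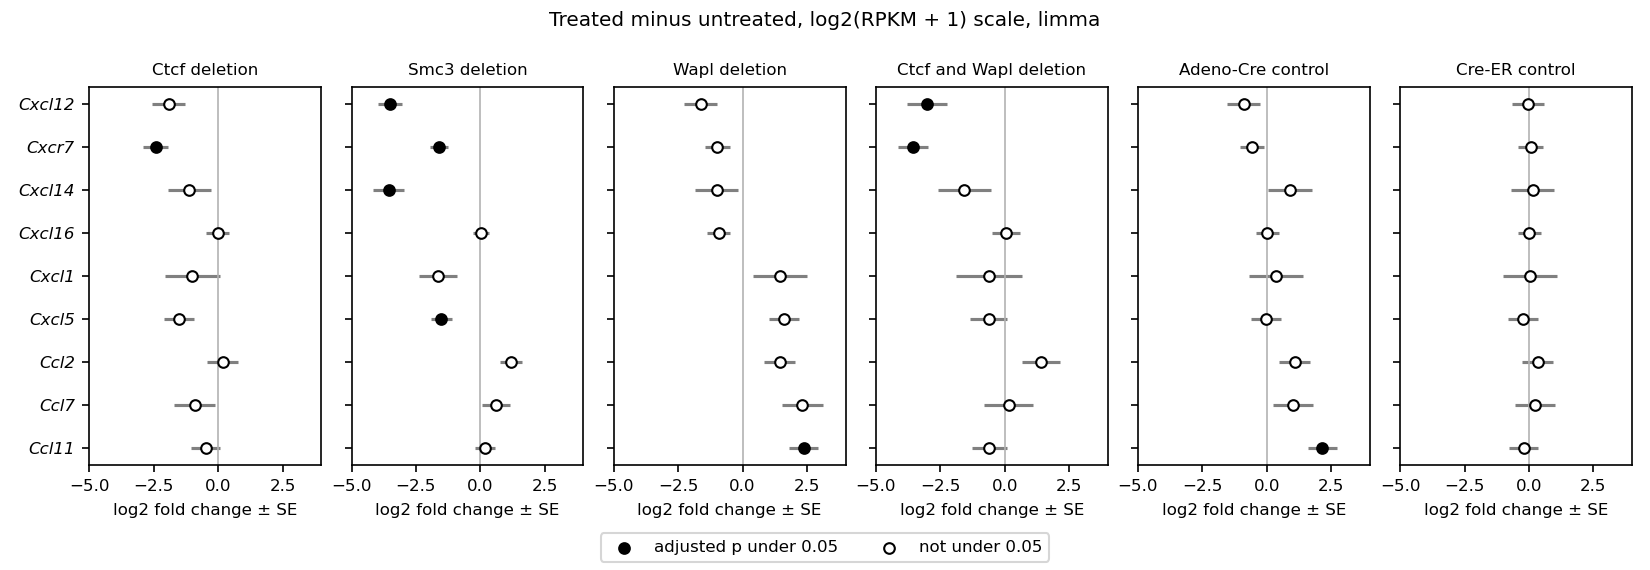
Log2 fold change with its SE for the 9 genes in 4 deletions and 2 controls, on the log2(RPKM + 1) scale; filled points have an adjusted p under 0.05. Cxcl12, Cxcr7, Cxcl14 and Cxcl5 are filled on the lower side in the Smc3 comparison, and Ccl11 is filled on the higher side in the Wapl deletion and the Adeno-Cre control.

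Over the 9 genes, the median log2 fold change differed in sign between comparisons, while single genes went either way. Cxcl12, Cxcr7 and Cxcl14 stood lower in every deletion, with a call in some of them. In Wapl cells their log2 fold changes were -1.63, -0.97 and -1.01, and that of Cxcl16 was -0.92, none called. Ccl2 stood higher in both Smc3 (1.21) and Wapl cells (1.44), without a call. In the libraries labelled Smc3-deleted 4 members fell and none rose, against 5.6% of all genes that fell and 9.37% that rose (6.31% and 6.97% after rescaling); the members' median log2 fold change was -1.52 and that of all genes 0.07. In Wapl cells 1 member rose, against 1.5% of genes that rose and 0.928% that fell, and the median was 1.44 (all genes -0.01). In Ctcf Wapl cells 2 fell, against 5.34% of genes that fell and 10.5% that rose (7.36% and 5.42% after rescaling, which takes the median of all genes from 0.17 to 0), with a median of -0.61. In Ctcf cells the median was -1.0 (all genes 0.05). In wild-type cells 1 rose after Adeno-Cre, against 2.7% of genes that rose and 0.54% that fell (1.53% and 0.661% after rescaling), with a median of 0.36 (all genes 0.04). In Cre-ER cells limma called none of the 9 members nor any other gene (0.0% of all genes), with no member and 41 genes at an unadjusted p under 0.05, and fold changes of the members ran from -0.25 to 0.35 on the log2 scale. The Ctcf, Ctcf Wapl and wild-type comparisons share no library, and neither do the Smc3, Wapl and Cre-ER ones.

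With clone as a block, which takes the differences between clones out of the error, more members passed: 6 in the Smc3 comparison (36.6% of all genes), 4 in Wapl cells (14.6%), 3, all lower, in Ctcf cells (9.35% of genes lower), 2 in Ctcf Wapl cells (22.8%), 1 in wild-type cells (23.0%) and none in Cre-ER cells (0.0%). The untreated and treated ranges were apart for 8 of 9 members in Wapl cells (48.8% of all genes), 7 in Ctcf Wapl cells (76.3%), 6 in wild-type cells (53.4%), 5 in Ctcf cells (48.3%), 3 in Smc3 cells (15.7%) and 1 in Cre-ER cells (21.5%). With 2 libraries a group such a gap is common, as the shares of all genes show.

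Tests of the differences between comparisons each called 1 member or none; some of them share control libraries (Cre-ER, or wild type) and are not independent. Smc3 minus Cre-ER had Cxcl12, where 0.762% of all genes were lower and 0.468% higher (0.828% and 0.287% after rescaling), and Cxcl14 joined it with the block (10.7% of genes). Smc3 minus Wapl had Cxcl5, where 0.555% were lower; with clone as a block 5 members passed (8.81% of genes), Cxcl5, Cxcl1 (-3.09, adjusted p = 0.0107), Ccl7 (-1.72, 0.0392) and Ccl11 (-2.20, 0.0219) lower and Cxcl16 higher (0.94, 0.0445). Ctcf Wapl minus wild type had Cxcr7, where 1.72% were lower and 2.15% higher (2.09% and 1.52% after rescaling), and Cxcl12 joined it with the block (5.76% of genes lower). Ctcf minus Smc3, which also compares Adeno-Cre with hydroxytamoxifen, had none by limma, with 1 member at an unadjusted p under 0.05 and 7.05% of all genes called; Cxcl12 differed by 1.58 (adjusted p = 0.27) and Cxcl14 by 2.44 (adjusted p = 0.182), and with the block only Ccl7 passed (-1.52, adjusted p = 0.0307, where 24.1% of genes did).

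Macrophages and virus-exposed cells make chemokines too. In the Smc3 comparison limma called none of the 16 macrophage markers tested (1 at an unadjusted p under 0.05), and their median log2 fold change was -1.62. With clone as a block 12 were lower, where 36.6% of all genes were called in either direction. In Ctcf cells the sum was 512 to 1100 RPKM untreated and 428 to 729 RPKM after Adeno-Cre, in wild-type cells 168 to 2810 and 109 to 1890 RPKM, in Cre-ER cells 650 to 1310 and 359 to 1110 RPKM, and in Ctcf Wapl cells 135 to 930 RPKM untreated and 718 RPKM after Adeno-Cre. The interferon sum was 91.0 to 103 RPKM untreated and 1360 RPKM after Adeno-Cre in Ctcf Wapl cells, where 7 of 9 tested genes rose, 332 to 938 and 989 to 1010 RPKM in Ctcf cells, and 130 to 319 and 267 to 519 RPKM in Smc3 cells. In Cre-ER cells it was 205 to 231 and 226 to 255 RPKM. In Ctcf cells limma called none of the 9 tested interferon genes, with a list median of -0.08. With clone as a block 1 rose and 1 fell there, where 9.35% of all genes fell. Against the wild-type response 2 were lower in Ctcf cells (list median -2.91), where 1.46% of all genes were called. In Smc3 cells limma called none (list median 0.61), with 2 at an unadjusted p under 0.05. The part of either list in the members' values was not tested. In the Ctcf Wapl comparison 4 of 12 fibroblast markers fell, among them the growth factor receptor Pdgfrb (151 to 57.0 RPKM, adjusted p = 0.000186) and the microfibril gene Fbn1 (173 to 64.1 RPKM, 0.00257); Pdgfra (11.8 to 1.33 RPKM, 0.0373) did not pass with clone as a block (0.0939). Cldn4, an epithelial tight-junction gene, rose there from 0.218 to 37.1 RPKM (adjusted p = 8.14e-10), while Epcam stayed at or under 0.771 RPKM. In the Smc3 comparison, where 5.6% of all genes fell, 2 of the 12 fibroblast markers did, Col1a1 (6130 to 3470 RPKM, limma adjusted p = 0.0215) and Fbn1 (167 to 120 RPKM, 0.0494). With clone as a block 5 fell, where 36.6% of all genes were called in either direction. Of 5 endothelial genes tested, Flt1 (11.3 to 1.55 RPKM, limma adjusted p = 0.000135) and Egfl7 (1.65 to 0.772 RPKM, 0.00701) fell in the Smc3 comparison. Egfl7 rose in wild-type cells after Adeno-Cre (2.39 to 5.0 RPKM, 0.0281). In the single Adeno-Cre library of Ctcf Wapl cells the 2 genes went opposite ways. Flt1 was 5.06 RPKM against 24.2 RPKM untreated, and Egfl7 4.01 RPKM against 1.73 RPKM. Pecam1 was at or under 0.275 RPKM in every library.

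**Figure D3:**
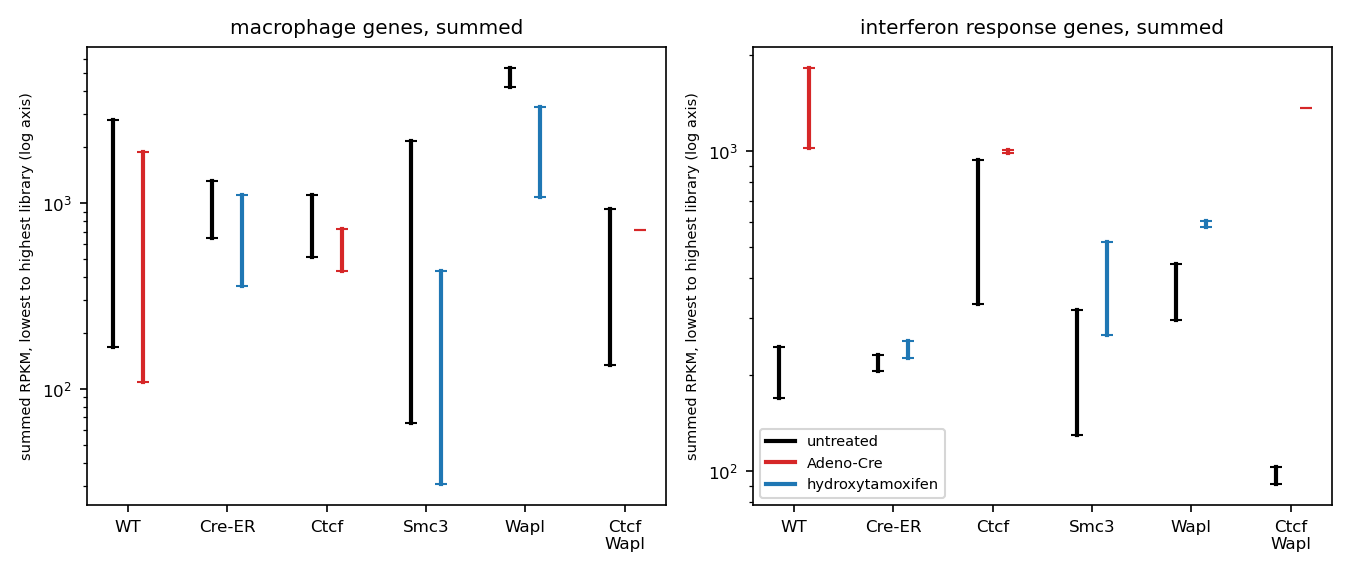
Lowest to highest summed RPKM of the macrophage and interferon-response lists in each group. The macrophage sum is highest in untreated Wapl cells (4230 to 5350 RPKM) and the interferon sum in wild-type cells after Adeno-Cre (1020 to 1820 RPKM).

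Nascent RNA was measured by GRO-seq, which reads RNA still attached to RNA polymerase. It is given as the authors' pooled TPM (a share of all transcripts, scaled to length), with no replicate values and as shares of a fixed total, so a change in all transcription would not show. From untreated to Adeno-Cre Ctcf Wapl cells, nascent Cxcl12 went from 70.9 to 4.63 TPM (15.3-fold lower) and nascent Cxcr7 from 24.2 to 1.26 TPM (19.1-fold lower). Nascent Cxcl1 went from 43.4 to 5.77 TPM (7.53-fold lower) and Cxcl14 from 3.06 to 0.488 TPM (6.27-fold lower). Cxcl16 was 5.55 and 2.46 TPM and Cxcl5 25.7 and 16.8 TPM. Ccl2 stood higher after Adeno-Cre, at 53.95 against 24.9 TPM (2.17-fold), as did Ccl7, at 87.9 against 50.5 TPM (1.74-fold). Of the 8 members at 1 TPM or more, 5 were at least 2-fold lower, as were 37.3% of 16122 genes, and 1 was at least 2-fold higher, as were 6.38%. Ccl11 was 0.365 TPM untreated and is listed at 0 afterwards. These nascent libraries came from clones 1 and 2, and the mRNA libraries of the same genotype from clones 3 and 4. No nascent column holds wild-type cells after Adeno-Cre apart from other cells. The part of Adeno-Cre itself in these nascent changes was therefore not tested.

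In wild-type cells nascent levels and mRNA levels ranked the genes differently. Cxcl12 was first of the 9 in mRNA, at 145 ± 108 RPKM over the 4 untreated wild-type and Cre-ER libraries (SD), while in nascent RNA, at 31.8 TPM, Ccl7, Cxcl5 and Cxcl1 stood above it. Ccl7 was first in nascent RNA, at 81.2 TPM, with 23.5 RPKM of mRNA. The ratio of mRNA RPKM to nascent TPM was 8.41 for Cxcl14 and 4.55 for Cxcl12, and 0.285 for Cxcl5, 0.289 for Ccl7 and 0.738 for Cxcl1, against a median of 1.97 over 10288 genes. Both scales are per length, of the transcript and of the gene, and which libraries make up the wild-type column is not given in the sources used here. The wild-type and Cre-ER GRO-seq samples include Adeno-Cre and hydroxytamoxifen ones, so treated cells may be in that column. They also came from other clones than the mRNA libraries.

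DRB blocks Cdk9, the kinase that releases paused polymerase, and was given for 3.5 h to Ctcf Wapl cells after Adeno-Cre, with a second library taken 1 day after its removal. These columns hold 1 library each, summing to 100000 against 200000 for the other columns, and were doubled. TPM times the annotated gene span fell on whole steps (within 0.02 of a read for 60.3% of the genes under 20 reads in the DRB library and for 66.1% in the washout library), which puts the depths near 1180000 and 7660000 reads. Ccl7 was 35.8 TPM in DRB (about 45 reads; 95% exact Poisson interval 26.1 to 47.9 TPM) and 61.2 TPM after washout, against 87.9 TPM without DRB. Ccl2 was 16.1 TPM (about 21 reads; 9.99 to 24.7 TPM), then 28.4 TPM, against 53.95 TPM. Cxcl12 was 0.449 TPM (4 reads; 0.122 to 1.15 TPM), then 2.89 TPM (108 reads; 2.37 to 3.49 TPM), against 4.63 TPM. Cxcl5 was 1.24 TPM (2 reads; 0.15 to 4.48 TPM), then 14.3 TPM, against 16.8 TPM. These 4 were at least 2-fold lower in DRB, among 7 members compared, as were 45.1% of 13812 genes. Cxcl1 was 7.71 TPM in DRB against 5.77 TPM, within its interval of 3.68 to 14.1 TPM, and Cxcr7 0.737 TPM (0.27 to 1.60 TPM) against 1.26 TPM. For Cxcl14 and Ccl11, with 0 reads, 3 reads would be 0.53 and 0.844 TPM, so a drop from 0.488 TPM in Cxcl14 was not detectable at this depth. The intervals cover counting error only and treat the value without DRB as fixed.

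**Figure D4:**
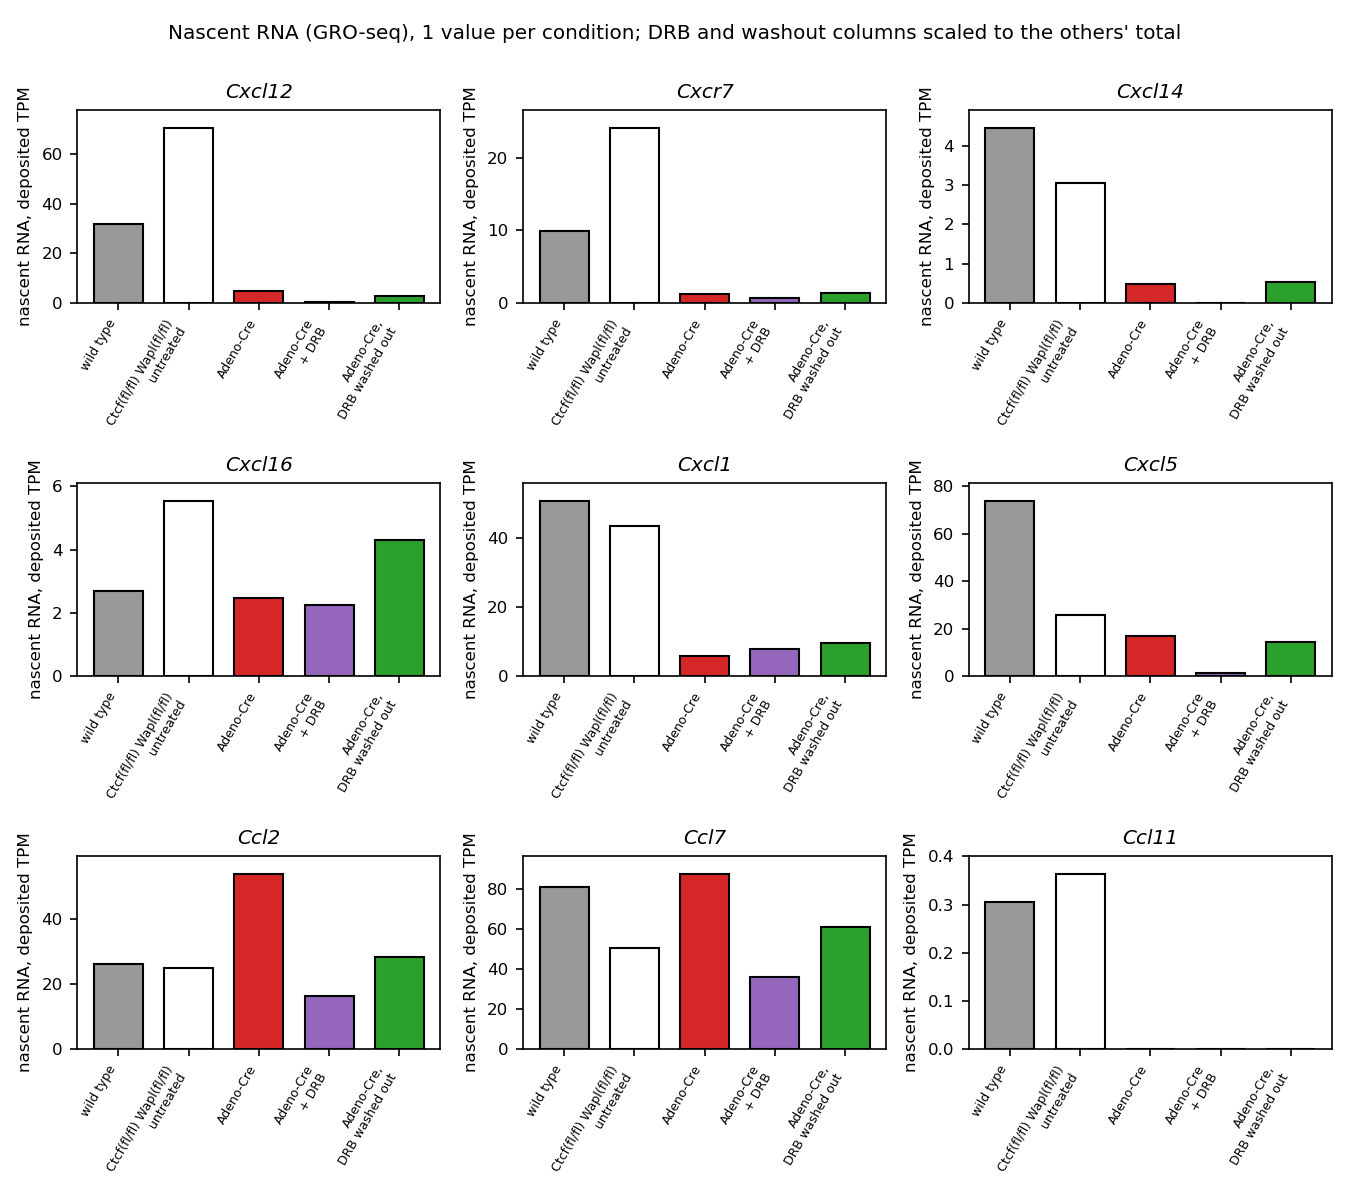
Deposited nascent TPM of the 9 genes, 1 bar a condition: wild type, untreated Ctcf Wapl cells, Adeno-Cre, Adeno-Cre in DRB and after DRB washout, the last 2 doubled. Cxcl12 goes from 70.9 to 4.63 TPM with Adeno-Cre, while Ccl2 goes from 24.9 to 53.95 TPM.

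The separate table, normalized apart from the rest, holds 2 libraries that are both labelled clone 3 of Ctcf Wapl cells after Adeno-Cre, and they did not resemble each other. The first had 3.17 RPKM of Ctcf and the second 7.62 RPKM, where the larger table had 9.26 RPKM in untreated clone 3 and 3.76 RPKM in treated clone 4. Cxcl12 was 10.6 and 51.7 RPKM in them, Cxcr7 1.58 and 21.8 RPKM, and Cxcl14 8.58 and 107 RPKM. In all 3 genes the library with less Ctcf was 4.87-fold or more below the other. Ccl2 was 127 and 317 RPKM and Ccl7 24.7 and 76.8 RPKM, Cxcl16 3.01 and 6.48 RPKM, Cxcl1 1.62 and 1.75 RPKM, while Cxcl5 (7.09 and 3.35 RPKM) and Ccl11 (2.56 and 0.775 RPKM) were higher in the first. The name under which these 2 libraries were deposited refers to serum stimulation. The sample labels used here name no serum for either, and no direction is drawn from them.

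Of 32 other chemokines listed, 18 passed the filter and 6 were at 0 in every library. None was called in the Ctcf, Smc3, Wapl or Cre-ER comparisons by limma, with 1, 2, 0 and 0 at an unadjusted p under 0.05 and list medians of -0.13, -0.32, 0.02 and -0.11. With clone as a block 4 fell in the Smc3 comparison, where 36.6% of all genes were called in either direction. In Ctcf cells 1 rose and 1 fell with the block, where 9.35% of all genes fell. In Ctcf Wapl cells, with a single treated library, the list median was 0.48 (all genes 0.17). Net of the wild-type response to Adeno-Cre it was 0.16 (all genes 0.1). The interferon-induced Cxcl10 stood at 0.497 RPKM untreated and 6.15 RPKM after Adeno-Cre in Ctcf Wapl cells. There the T-cell attractant Ccl5 stood at 0.398 and 5.49 RPKM, and Ppbp, the neighbour of Cxcl5, at 1.1 and 5.53 RPKM. In wild-type cells Cxcl10 rose after Adeno-Cre, from 2.46 to 16.4 RPKM (limma adjusted p = 0.0204), where 2.7% of all genes rose. With the block 4 of the list rose and 1 fell there, where 23.0% of all genes were called. Among 23 receptors 8 were tested, and Darc, an atypical receptor that binds Ccl2, Ccl7, Ccl11, Cxcl1 and Cxcl5, rose in Wapl cells from 4.02 to 10.1 RPKM (adjusted p = 0.0187), the comparison in which Ccl11 also rose. Darc, at lower levels and named for these after its values were seen, also rose in Ctcf cells (0.429 to 2.39 RPKM, adjusted p = 0.00251) and in Ctcf Wapl cells (0.394 to 1.59 RPKM, 0.0499), and no other receptor of the list was called in a deletion or control by this fit. Against the Cre-ER control limma called none of the 8 receptors in Wapl cells, nor against the wild-type response in Ctcf cells. In each, 1 had an unadjusted p under 0.05, and 0.143% and 1.46% of all genes were called. With clone as a block 1 rose in each, where 2.48% and 6.95% of genes passed. In the Smc3 comparison 2 of the 8 receptors fell with the block, Cxcr4 among them, where 36.6% of all genes were called in either direction.

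Across the 27 libraries, which share clones and treatments, the members fell into loose pairs, given as a description. Cxcl12 followed Cxcl14 (Pearson r = 0.83) more closely than its receptor Cxcr7 (0.43), Ccl7 followed Ccl11 (0.75), and Cxcl1 followed Cxcl5 (0.65), while Cxcr7 and Ccl2 ran opposite (-0.47). Among 8945 genes with a group mean of 5 RPKM or more, those nearest to Cxcl12 were Rcan2 (0.92), Ahr (0.91) and Snai2 (0.91), and those nearest to Cxcl14 were Nkd2 (0.93), Spsb1 (0.91) and Cyp26b1 (0.90). Cxcr7 was nearest to Thsd4 (0.88), Peg3 (0.86) and Ror1 (0.85). Cxcl1 was nearest to the immediate-early genes Junb (0.83) and Dusp1 (0.80) and to Id1 (0.80), and Cxcl5 to Tspan4 (0.87), Clu (0.83) and Efemp2 (0.79). Ccl2 followed the histone genes Hist1h1c (0.84), Hist1h4i (0.82) and Hist1h1d (0.82). Ccl7 was nearest to Ccl11 (0.75), Pdpn (0.74) and Vcam1 (0.73), Ccl11 to Ndufa4l2 (0.85), Irf9 (0.76) and Ccl7 (0.75), and Cxcl16 to Sdf2l1 (0.86), Rgl2 (0.81) and Klc4 (0.78).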

How the data were processed

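RNA-seq values are RPKM per gene as the authors deposited them, and nascent RNA values are TPM as deposited, pooled by the authors over 2 libraries in the untreated and Adeno-Cre Ctcf Wapl columns, per the file headers; which libraries the wild-type column holds is not given in the sources used here. The submitters' processing notes name build mm9, HTSeq, bedtools, MACS 1.4.2, Bowtie 0.12.5 and TopHat (1.3.1 and 1.4.1), without their roles; the strand setting of the counting is not given in the sources used here. Of 103 samples, 29 are RNA-seq, 10 GRO-seq and 64 ChIP-seq, the last not analysed here.

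RPKM values of 18155 of 18155 genes above 0 in at least 3 libraries came out as whole reads (within 0.02 of a read), which gave the depths; the number of reads limits the precision of low values. Genes at 1 RPKM or more in at least 2 of 27 libraries were fitted with limma 3.58.1 (R 4.3.3; trend and robust) on log2(RPKM + 1), with 12 group means, 15 residual degrees of freedom and Benjamini-Hochberg adjustment over all genes tested; an adjusted p under 0.05 is a call. Fold changes on this scale understate the change of low genes. The fit was tested on simulated data. Alternatives were a term for the clone (a block, leaving 7 degrees of freedom), only the groups compared, a pseudocount of 0.25, no filter, a filter of 6 libraries, rescaling by median ratios, no trend and robust options, and leaving out each library.

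The labels give the clone of each library, and same-numbered libraries deviated together in Smc3 (correlations 0.49 to 0.70), Ctcf (0.68), Wapl (0.47) and wild-type cells (0.76), but not in Cre-ER cells (-0.20). Within-group correlations were 0.948 to 0.991, and no 2 libraries were identical. Every member is named; of the other lists, genes past the threshold with a group mean of at least 5 RPKM, at most 5 a comparison, and for likeness the 3 highest correlations per gene. The members and lists were chosen with earlier results of these data known. Of the nascent columns none was tested. No column of per-sample values was left unused (0), and 1 column of means was not used.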

Additional observations from a re-analysis of the deposited data

Results flagged for a closer look

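In untreated Smc3 cells the Cxcr7 mRNA of clone 3, 46.4 RPKM, stood apart from the other 3 libraries (29.6 to 30.8 RPKM). Among the libraries labelled Smc3-deleted, Ccl11 in clone 1, at 9.03 RPKM, stood apart from the other 3 (1.47 to 1.99 RPKM). Gaps of this size arise by chance in about 1 in 20 groups of 4.

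The change of Cxcl12 differed between Smc3 cells and cells with Cre-ER alone (-3.47 on the log2 scale), that of Cxcl5 between Smc3 and Wapl cells (-3.13), and that of Cxcr7 between Ctcf Wapl and wild-type cells (-2.97), each by a test of the difference itself. The libraries on which each of these calls depends are given with it above.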

How the results depend on the processing

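No fold change that was called, as reported or under the alternative, changed sign. Of the fold changes of single members, 735 kept their direction and side of the threshold under the alternatives other than leaving out a library, 14 lost a call, 21 gained one and 11 changed sign; with 1 library left out, 655 kept both, 34 lost a call, 6 gained one and 61 changed sign. All 72 sign changes had an adjusted p of 0.438 or more. With rescaling they were Cxcl16 in Smc3 (-0.03), Ctcf Wapl (-0.11) and wild-type cells (-0.07), in Smc3 minus Cre-ER (-0.06, and 0.0 at the pseudocount of 0.25) and in Ctcf Wapl minus wild type (-0.05), and Ccl7 in Ctcf Wapl cells (-0.07). With the block they were Cxcl5 and Cxcl16 in Ctcf Wapl cells (0.05 and -0.35) and in Ctcf Wapl minus wild type (0.10 and -0.37). With 1 library left out, ranges that crossed 0 were, in Ctcf cells, Cxcl16 -0.23 to 0.20 and Ccl2 -0.45 to 0.79; in Smc3 cells, Ccl11 -0.29 to 0.38 and Cxcl16 -0.14 to 0.24; in Ctcf Wapl cells, Cxcl5 -1.29 to 0.05 and Cxcl16 -0.35 to 0.48. In wild-type cells they were Cxcl16 -0.47 to 0.50, Cxcl1 -0.82 to 1.55 and Cxcl5 -0.39 to 0.30. In Cre-ER cells they were Cxcl5 -0.51 to 0.01, Cxcl1 -0.31 to 0.36, Cxcl16 -0.24 to 0.28, Cxcl12 -0.09 to 0.01, Cxcl14 -0.10 to 0.38, Ccl2 -0.10 to 0.80, Ccl7 -0.02 to 0.48 and Ccl11 -0.54 to 0.13. Among the differences they were Cxcl16 -0.52 to 0.45 in Ctcf minus wild type, Cxcl16 -0.25 to 0.26, Ccl7 -0.01 to 0.91 and Ccl11 -0.09 to 0.71 in Smc3 minus Cre-ER, Ccl2 -0.64 to 0.18 in Smc3 minus Wapl, and Cxcl16 -0.25 to 0.18, Cxcl5 -0.59 to 0.55 and Cxcl1 -0.13 to 1.28 in Ctcf minus Smc3. In Ctcf Wapl minus wild type they were Cxcl5 -1.25 to 0.10, Cxcl16 -0.44 to 0.53, Cxcl1 -2.16 to 0.21 and Ccl2 -0.23 to 0.89. Counts of members called changed as follows. Fitting only the groups compared gave 0 for the Ctcf, Wapl, Ctcf Wapl and Adeno-Cre control comparisons and for Smc3 minus Cre-ER, Smc3 minus Wapl and Ctcf Wapl minus wild type, 1 (Ccl11) for Ctcf minus wild type and 3 for Smc3; this fit has fewer residual degrees of freedom. With the clone block the counts were 3 for Ctcf, 6 for Smc3 (4 without it), 4 for Wapl, 2 for Ctcf minus wild type, 2 for Smc3 minus Cre-ER, 1 for Wapl minus Cre-ER, 5 for Smc3 minus Wapl, 1 for Ctcf minus Smc3 and 2 for Ctcf Wapl minus wild type, and the counts stayed at 2 for Ctcf Wapl, 1 for the Adeno-Cre control and 0 for Cre-ER. Pairing Cre-ER clones crosswise, a choice made after seeing the data, gave 2 members for Smc3 minus Cre-ER and 2 for Wapl minus Cre-ER with the block (1335 and 268 genes in place of 1343 and 312). A pseudocount of 0.25 gave 0 for Wapl and 0 for the Adeno-Cre control, rescaling gave 0 for the Adeno-Cre control and 0 for Smc3 minus Wapl, and no filter gave 0 for Smc3 minus Cre-ER; the cause of these losses was not tested. Leaving out 1 library at a time gave 0 to 1 members for Ctcf, 3 to 5 for Smc3, 0 to 1 for Wapl, 1 to 2 for Ctcf Wapl, 0 in every case for the Adeno-Cre control, 0 to 2 for Smc3 minus Cre-ER, 0 to 2 for Smc3 minus Wapl and 0 to 1 for Ctcf Wapl minus wild type. Depth limits Ccl11 and Cxcl14 most: their lowest libraries hold 1 and 2 reads.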
